A study of Mus musculus with 36 samples.

Results

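Osteoclasts are bone-resorbing cells that form from macrophage precursors, and RAW264.7 cells, a mouse macrophage line, are widely used as such precursors. The 10 genes described here are Tnfrsf11a, Oscar, Itgb3, Nfatc1, Dcstamp, Ocstamp, Ctsk, Acp5, Mmp9 and Atp6v0d2. They were chosen by name for their roles in osteoclast formation and bone resorption, with earlier results of these data known. All 10 were found among the 49568 gene names of each of the 2 count tables.

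In osteoclast formation, RANKL binds its receptor RANK (Tnfrsf11a), and costimulatory receptors such as OSCAR add a calcium signal. These signals induce the transcription factor NFATc1, which turns on genes for cell fusion (Dcstamp, Ocstamp), adhesion to bone (Itgb3) and resorption (Ctsk, Acp5, Mmp9), together with a subunit of the proton pump that acidifies the space under the cell (Atp6v0d2). IFNγ is known to inhibit this programme in precursors, and Il-4 is known to inhibit it as well.

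The libraries came from RAW264.7 cells that carried no added gene and were grown for 72 h, with the medium refreshed at 48 h. The study asked whether short peptides of human HLA-DRβ chains change macrophage polarization. One peptide, 65–79*SE, holds the shared epitope, known as a risk factor for rheumatoid arthritis. The other, 65–79*PE, holds an epitope known to protect from it. Both were used at 100 µg/ml, and the added cytokine, IFNγ in one table and Il-4 in the other, at 5 ng/ml. Each table held 6 PBS, 6 65–79*SE and 6 65–79*PE libraries, 36 in all. The titles of the PBS libraries also name the cytokine of their table, without saying whether it was added to them. Replicates 1–3 and replicates 4–6 of each group were named by different schemes in the labels and are kept apart here as label sets. No group was labelled as having received RANKL, so these are levels in a macrophage line and not in osteoclasts.

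The IFNγ libraries held 20.67 to 63.16 M counts each, and the Il-4 libraries held 17.05 to 30.64 M. A count of 0 allowed up to 3 counts, or 0.0542 to 0.166 and 0.0954 to 0.173 CPM (counts scaled by the effective library size), and these limits cover counting error only. Macrophage markers (6 genes) summed to 3134 to 10356 CPM, while lists for T cells (4 genes), B cells (3) and fibroblasts (3) summed to at most 0.682, 0.293 and 0.0418 CPM. Of 5 osteoblast markers, Alpl, Sp7 and Col1a1 did not exceed 0.392 CPM in any library, Runx2 reached 5.09 CPM and Bglap 37.4 CPM. The summed osteoblast list ran from 30.3 to 38.9 and from 6.31 to 11.8 CPM with 65–79*PE and IFNγ in the 2 label sets, almost all of it Bglap in the first. In PBS it was 4.39 to 6.63 and 4.57 to 5.22 CPM. Libraries labelled 65–79*SE with IFNγ had 10.7 to 11.6 CPM in replicates 1–3, also above PBS, and 3.46 to 5.87 CPM in replicates 4–6. The part of this list in the results below was not tested.

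Some libraries stood apart before any contrast was made. On 12 genes induced by IFNγ, the mean log2 CPM of PBS was 0.24 ± 0.14 (SD, n = 3) in replicates 1–3 and 0.55 ± 0.14 in replicates 4–6, against 5.71 ± 0.02 and 5.84 ± 0.09 for 65–79*PE. The libraries labelled 65–79*SE with IFNγ scored 5.96 ± 0.11 in replicates 1–3 but 0.19 ± 0.23 in replicates 4–6, so these 3 libraries lacked the response their label names. On 10 genes chosen as induced by Il-4, PBS of the Il-4 table scored -2.60 ± 0.17 and -2.69 ± 0.13. Scores were higher for 65–79*SE (-0.03 ± 0.26 and -0.33 ± 0.17) and 65–79*PE (-0.06 ± 0.29 and -0.52 ± 0.10). Only 4 of these 10 had enough counts to be tested in the Il-4 table, so the score is also a mean over genes with few counts. PBS libraries thus carried neither response, although their titles name the cytokine of their table. In a contrast against PBS the peptide and the cytokine cannot be told apart. In the Il-4 table, replicate 1 of each group held the highest Ctsk, Acp5, Atp6v0d2 and Dcstamp of its 3 libraries.

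RefSeq upstream sequence (GRCm38.p6) was given for 4 of the 10 genes, Ctsk, Acp5, Oscar and Tnfrsf11a. Those of the first 3, which moved most, are shown because factors such as NFATc1 and PU.1 are known to act upstream of such genes. Acp5 had 3 windows, of which only the outermost is shown. Which of them is used in these cells was not tested. Each is the 250 bases before an annotated start, 5′ to 3′ on the strand of the gene, and capitals mark GGAAA (the core bound by NFAT factors) or GAGGAA (a core bound by PU.1) on either strand, read as TTTCC or TTCCTC on the other strand. GGAAA was in 55.6% and GAGGAA in 23.3% of 32851 such windows of all genes.
Ctsk, chr3:95498960-95499209, plus strand: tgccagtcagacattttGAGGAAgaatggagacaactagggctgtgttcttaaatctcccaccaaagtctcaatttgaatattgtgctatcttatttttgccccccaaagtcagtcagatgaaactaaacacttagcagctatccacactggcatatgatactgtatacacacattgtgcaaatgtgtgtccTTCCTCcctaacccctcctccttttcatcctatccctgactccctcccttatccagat
Oscar, chr7:3616158-3616407, minus strand: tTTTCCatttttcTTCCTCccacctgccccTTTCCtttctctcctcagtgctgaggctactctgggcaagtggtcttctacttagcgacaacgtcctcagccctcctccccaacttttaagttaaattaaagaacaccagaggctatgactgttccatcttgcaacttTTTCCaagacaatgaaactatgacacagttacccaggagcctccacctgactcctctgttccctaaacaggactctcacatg
Acp5, chr9:22135747-22135996, minus strand: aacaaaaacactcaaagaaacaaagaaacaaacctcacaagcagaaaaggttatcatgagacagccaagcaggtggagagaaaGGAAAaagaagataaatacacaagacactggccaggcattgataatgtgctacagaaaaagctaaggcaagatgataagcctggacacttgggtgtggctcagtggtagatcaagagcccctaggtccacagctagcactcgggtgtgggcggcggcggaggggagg
The Ctsk window held 2 GAGGAA matches and 0 GGAAA matches. The Oscar window held 3 GGAAA matches and 1 GAGGAA match, and this Acp5 window, the outermost of 3 for the gene, held 1 GGAAA match. None of the 3 windows held the IFNγ-activated site TTCNNNGAA, found in 7.02% of windows, or the STAT6 site, with 1 more base between its arms, found in 5.85%. Of the other 2 Acp5 windows, not shown, the one nearest the gene's 3′ end held 2 GGAAA matches and 1 STAT6 match. The other held 1 GGAAA match, and neither held an IFNγ-activated site. The Tnfrsf11a window, also not shown, held 0 GGAAA and 0 GAGGAA matches. A match is a string of letters in the window and not a measured binding site.

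Levels between genes are compared as CPM per kilobase of annotated exon. In PBS of the IFNγ table, replicates 1–3, Atp6v0d2 (46.2 ± 7.19, SD, n = 3) and Ctsk (41.9 ± 2.16) were the highest and did not differ beyond their spread, followed by Acp5 at 25.5 ± 1.53. Nfatc1 (5.62 ± 0.168), Tnfrsf11a (4.86 ± 0.712), Dcstamp (3.88 ± 0.194) and Mmp9 (2.61 ± 0.620) came next, with Oscar at 0.865 ± 0.195, Ocstamp at 0.326 ± 0.141 and Itgb3, at 0.0689 ± 0.00715, the lowest. Atp6v0d2, Ctsk and Acp5 thus led, Mmp9 came after Nfatc1, Tnfrsf11a and Dcstamp, and Itgb3 rested on 12 to 15 counts per library. In replicates 4–6 the same PBS group held Atp6v0d2 at 73.6 ± 9.79, Ctsk at 29.3 ± 5.85 and Acp5 at 9.60 ± 1.88 CPM per kilobase. Acp5 was thus lower in the later-numbered label set while Atp6v0d2 was higher, and the label sets are set side by side without a test of levels.

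With 65–79*PE and IFNγ, 7 of the 10 differed from PBS by the call rule in replicates 1–3 and 8 did in replicates 4–6, where 19.8% and 10.8% of all genes tested were called. A gene was called when the quasi-likelihood test of edgeR gave a Benjamini-Hochberg adjusted p under 0.05 over all genes tested and a fold change above 1.5. In each set 1 called gene, Ocstamp, was higher, and the others (6 and 7) were lower, where 9.54% and 4.66% of all genes were called lower. The median log2 fold change over the 10 genes was -1.23 and -1.90, beside 0.00189 and -0.00369 over all genes tested. The same 7 and 8 genes were called with each of the 6 libraries left out in turn. In bulk RNA, fewer cells of a type and less RNA per cell cannot be told apart.

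With 65–79*SE and IFNγ, 7 genes were called in replicates 1–3, where 22.8% of all genes were called. These were the 7 called with 65–79*PE in that set, 6 lower (10.2% of all genes were) and Ocstamp higher, and both contrasts use the same PBS libraries. In the libraries labelled 65–79*SE of replicates 4–6, without the IFNγ response, 5 genes were lower and 0 higher, where 0.72% of all genes were called and 0.482% were called lower. That count rested on few libraries. It was 2, 1 and 4 without PBS replicate 4, 5 or 6, 1 without 65–79*SE replicate 4, and 0 without 65–79*SE replicate 5 or 6. The share of all genes is not given for these counts. The number called was also 0 when only the 6 libraries of these groups were fitted, where 0.00673% of all genes were called.

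**Figure D1:**
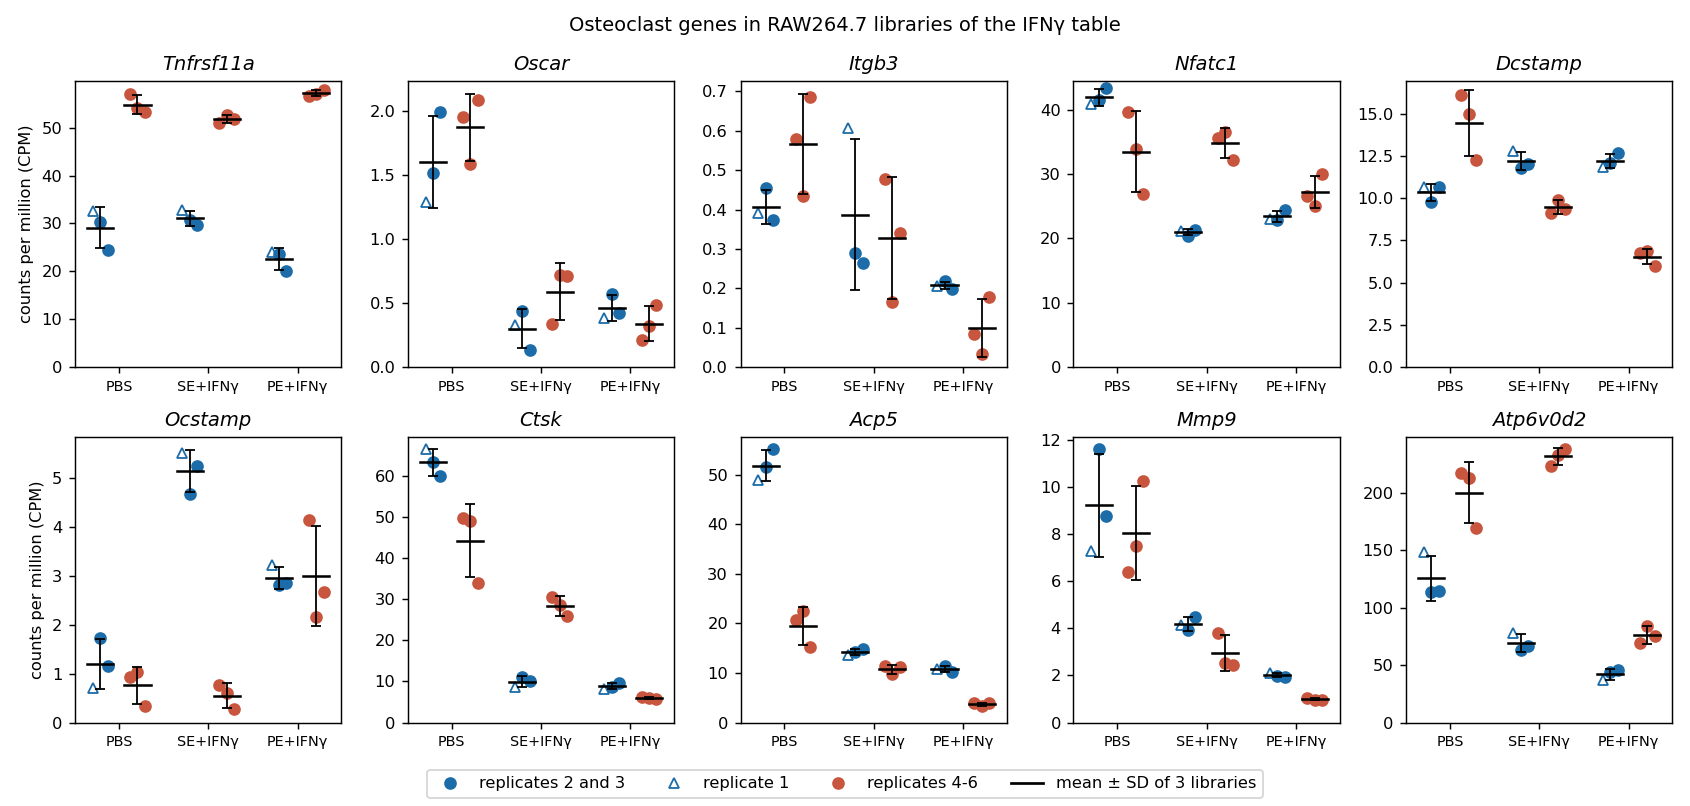
Level of each of the 10 genes in every library of the IFNγ table, in CPM (vertical axis from 0), by group. Blue symbols are replicates 1-3 (open triangle, replicate 1), red symbols replicates 4-6, and bars the mean ± SD of 3 libraries. Ctsk, Acp5 and Mmp9 fall from PBS to 65–79*PE in both label sets, and Ocstamp rises. The red 65–79*SE libraries lie nearer PBS of their set than the blue ones for Ctsk, Acp5, Nfatc1, Ocstamp and Atp6v0d2.

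Ctsk encodes cathepsin K, the protease that degrades bone collagen (ENSMUSG00000028111.4, GRCm38 chromosome 3, 95499256 to 95509362, plus strand), and its upstream window is shown above. It was at 66.6, 63.3 and 60.1 CPM in PBS replicates 1–3, at 8.56, 11.2 and 10.1 CPM with 65–79*SE and IFNγ, and at 8.27, 8.75 and 9.69 CPM with 65–79*PE and IFNγ. Replicates 4–6 had it at 49.7, 49.1 and 34.1 CPM in PBS, at 30.6, 28.6 and 25.9 CPM in the libraries labelled 65–79*SE, and at 6.31, 5.95 and 5.65 CPM with 65–79*PE. Every peptide library was below every PBS library of its set. The log2 fold change with 65–79*PE was -2.79 (SE 0.10, adjusted p 5.2e-11) and -2.89 (SE 0.14, adjusted p 2.99e-08) in the 2 sets, and with 65–79*SE it was -2.64 (SE 0.10, adjusted p 6.62e-11) in replicates 1–3. The fall in the 65–79*SE libraries of replicates 4–6 was smaller at -0.64 (SE 0.13, adjusted p 0.0454), and the call was lost without any 1 of PBS replicate 4 or 5 or the 65–79*SE replicates, with adjusted p up to 0.163.

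Acp5 encodes tartrate-resistant acid phosphatase, a standard histochemical marker of osteoclasts (ENSMUSG00000001348.15, chromosome 9, 22126727 to 22135711, minus strand). An annotated antisense transcript, 6530413G14Rik, overlaps it, and the strand setting of the counting was not stated, so reads of the pair may be mixed. Its PBS level was 48.9, 51.4 and 55.1 CPM in replicates 1–3 and 20.7, 22.6 and 15.2 CPM in replicates 4–6. Libraries of 65–79*PE with IFNγ had 10.8, 11.3 and 10.1 CPM and then 3.84, 3.27 and 3.87 CPM, log2 fold changes of -2.23 (SE 0.08, adjusted p 4.13e-11) and -2.41 (SE 0.15, adjusted p 2.71e-07). The 65–79*SE libraries lay between PBS and 65–79*PE in both sets. They were at 13.7, 14.2 and 14.7 CPM in replicates 1–3 (-1.84, SE 0.08, adjusted p 1.98e-10) and at 11.3, 9.74 and 11.2 CPM in replicates 4–6 (-0.85, SE 0.14, adjusted p 0.0246). The latter call was lost without PBS replicate 5 or any 1 of the 65–79*SE replicates, with adjusted p up to 0.116.

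Mmp9 encodes gelatinase B, a matrix metalloprotease (ENSMUSG00000017737.2, chromosome 2, 164940780 to 164955850, plus strand). It was at 7.31, 11.6 and 8.78 CPM in PBS replicates 1–3, at 4.14, 3.92 and 4.49 CPM with 65–79*SE and at 2.11, 1.99 and 1.96 CPM with 65–79*PE. Replicates 4–6 had it at 6.41, 7.51 and 10.3 CPM in PBS, at 3.82, 2.55 and 2.44 CPM in the 65–79*SE libraries and at 1.04, 0.970 and 0.966 CPM with 65–79*PE. The 3 groups did not overlap in either set, with the same order of PBS, 65–79*SE and 65–79*PE. With 65–79*PE the log2 fold change was -2.15 (SE 0.17, adjusted p 2.87e-07) and -3.02 (SE 0.24, adjusted p 2.09e-06), and with 65–79*SE it was -1.11 (SE 0.16, adjusted p 5.37e-05) in replicates 1–3 and -1.46 (SE 0.21, adjusted p 0.0167) in replicates 4–6. The last was lost without 65–79*SE replicate 5 or 6, with adjusted p up to 0.108.

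Atp6v0d2 encodes the d2 subunit of the vacuolar proton pump, which is enriched in osteoclasts and also takes part in precursor fusion (ENSMUSG00000028238.6, chromosome 4, 19876841 to 19922605, minus strand). PBS libraries had 148, 114 and 115 CPM in the first set, replicates 1–3, and 217, 213 and 169 CPM in the second. Libraries of 65–79*PE with IFNγ had 36.7, 44.2 and 45.6 CPM and at 69.1, 84.3 and 75.3 CPM, log2 fold changes of -1.53 (SE 0.11, adjusted p 7.95e-08) and -1.39 (SE 0.10, adjusted p 1.01e-06). The 65–79*SE libraries differed by label set. They were at 77.8, 62.9 and 66.9 CPM in replicates 1–3, below PBS (-0.83, SE 0.11, adjusted p 1.83e-05), and at 224, 233 and 238 CPM in replicates 4–6, all above PBS but not called (0.22, SE 0.10, adjusted p 0.285).

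Nfatc1 encodes the transcription factor regarded as the master regulator of osteoclast formation (ENSMUSG00000033016.16, chromosome 18, 80606205 to 80713071, minus strand), and an annotated antisense gene, AC123818.1, overlaps it. It was at 40.9, 41.5 and 43.4 CPM in PBS replicates 1–3, at 21.2, 20.4 and 21.4 CPM with 65–79*SE and at 23.0, 22.9 and 24.4 CPM with 65–79*PE. Both falls were called, at -0.97 (SE 0.07, adjusted p 3.18e-08) and -0.80 (SE 0.06, adjusted p 3.09e-07). The PBS libraries of replicates 4–6 ran from 27.0 to 39.6 CPM and overlapped 65–79*PE (25.1 to 30.0 CPM, log2 fold change -0.30, SE 0.12, adjusted p 0.107) and the 65–79*SE libraries (32.2 to 36.6 CPM, 0.06, SE 0.12, adjusted p 0.862). The transcription factor was therefore lower in replicates 1–3 and not called in replicates 4–6, where Ctsk, Acp5 and Mmp9 were called lower with 65–79*PE.

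The receptors did not move together. Tnfrsf11a, which encodes RANK (ENSMUSG00000026321.7, chromosome 1, 105780718 to 105847981, plus strand), was not called in any of the 12 contrasts. With 65–79*PE and IFNγ it was at 24.1, 23.7 and 20.0 CPM against 32.6, 30.3 and 24.4 CPM in PBS replicates 1–3 (-0.33, SE 0.10, adjusted p 0.0156, a fold change of 1.25), and at 56.7, 57.0 and 57.9 CPM against 57.1, 54.1 and 53.4 CPM in replicates 4–6 (0.06, SE 0.06, adjusted p 0.523). Oscar, the collagen-binding costimulatory receptor (ENSMUSG00000054594.13, chromosome 7, 3609813 to 3616157, minus strand), had 40 to 108 counts in the IFNγ PBS libraries and 5 to 21 in the peptide libraries. It was at 1.29, 1.51 and 1.99 CPM in PBS replicates 1–3, and at 0.331, 0.435 and 0.132 CPM with 65–79*SE (-2.39, SE 0.35, adjusted p 7.27e-05) and 0.381, 0.572 and 0.425 CPM with 65–79*PE (-1.75, SE 0.33, adjusted p 0.00069). In replicates 4–6 the log2 fold change was -2.40 (SE 0.35, adjusted p 0.00032) with 65–79*PE and -1.66 (SE 0.34, adjusted p 0.0459) in the 65–79*SE libraries, and the latter call was lost without any 1 of the 6 libraries, with adjusted p up to 0.144. Oscar thus fell while Tnfrsf11a stayed within a fold change of 1.5.

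Itgb3 encodes the β3 chain of the vitronectin receptor (ENSMUSG00000020689.4, chromosome 11, 104608000 to 104670476, plus strand) and was the least abundant, with 1 to 32 counts per library of the IFNγ table. Its 65–79*PE libraries with IFNγ had 7, 8 and 7 counts against 14, 15 and 12 in PBS replicates 1–3 (-0.92, SE 0.41, adjusted p 0.0787), and 2, 1 and 7 counts against 32, 11 and 29 in replicates 4–6 (-2.42, SE 0.54, adjusted p 0.00579). With 65–79*SE it was not called, at -0.04 (SE 0.37, adjusted p 0.937) and -0.78 (SE 0.47, adjusted p 0.426). At these counts a smaller difference was not detectable.

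Of the 2 fusion genes, Ocstamp, a membrane protein needed for precursors to fuse (ENSMUSG00000027670.4, chromosome 2, 165393760 to 165400405, minus strand), was the only one of the 10 that was called higher against PBS with IFNγ in either label set. It was at 0.700, 1.73 and 1.15 CPM in PBS replicates 1–3, at 5.52, 4.67 and 5.26 CPM with 65–79*SE (2.14, SE 0.23, adjusted p 3.92e-06) and at 3.23, 2.81 and 2.86 CPM with 65–79*PE (1.36, SE 0.24, adjusted p 0.000397). Among replicates 4–6 the level was 0.939, 1.03 and 0.332 CPM in PBS and at 4.14, 2.17 and 2.67 CPM with 65–79*PE (1.97, SE 0.40, adjusted p 0.00366). The 65–79*SE libraries of that set, at 0.763, 0.609 and 0.272 CPM, overlapped PBS (-0.51, SE 0.50, adjusted p 0.648).

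Dcstamp encodes the related fusion protein DC-STAMP (ENSMUSG00000022303.9, chromosome 15, 39745930 to 39760938, plus strand). In replicates 1–3 it was at 10.6, 9.74 and 10.6 CPM in PBS, between 11.8 and 12.8 CPM with 65–79*SE and at 11.9, 12.1 and 12.7 CPM with 65–79*PE. Every peptide library was above PBS, but the log2 fold changes of 0.27 (SE 0.08, adjusted p 0.0182) and 0.28 (SE 0.08, adjusted p 0.0148) were fold changes of 1.20 and 1.21 and so were not called. The order was turned in replicates 4–6, with PBS at 16.1, 15.0 and 12.3 CPM, 65–79*PE at 6.77, 6.85 and 6.00 CPM (-1.15, SE 0.12, adjusted p 2.27e-05) and the 65–79*SE libraries at 9.11, 9.91 and 9.37 CPM (-0.61, SE 0.12, adjusted p 0.0386). The latter call was lost without any 1 of PBS replicate 4 or 5 or the 65–79*SE replicates, with adjusted p up to 0.151.

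**Figure D2:**
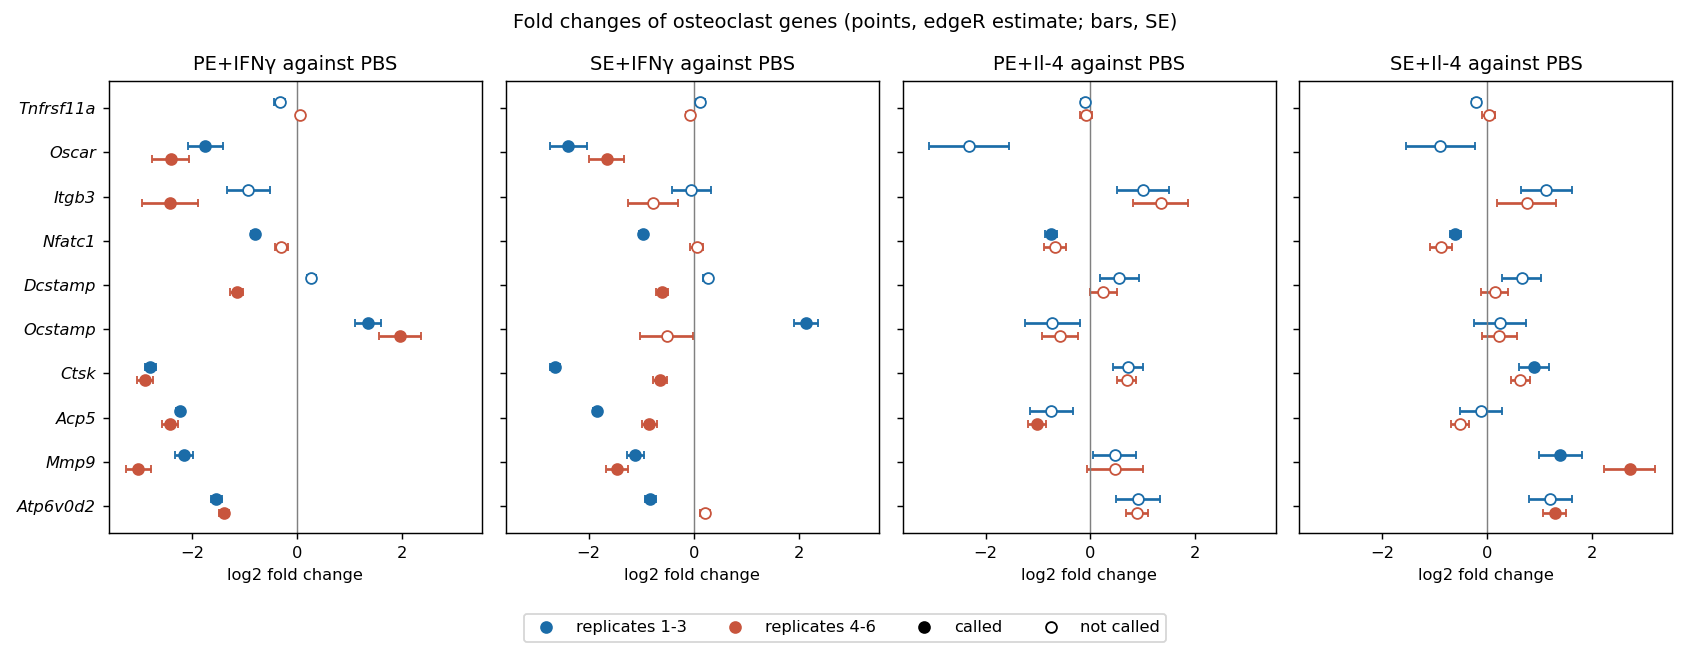
Log2 fold change of each gene against PBS (horizontal axis; bars, SE) for each peptide with IFNγ or Il-4, in replicates 1-3 (blue) and 4-6 (red), with filled points where the gene was called. Ctsk, Acp5, Mmp9, Oscar and Atp6v0d2 lie to the left with 65–79*PE and IFNγ in both sets, whereas with Il-4 Ctsk, Mmp9 and Atp6v0d2 lie to the right; Oscar is absent from the red Il-4 points because it failed the low count filter there.

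The peptides with IFNγ were compared directly with each other at the same dose and time. In replicates 1–3, where both groups carried the IFNγ response, 3 of the 10 genes were called and all were higher with 65–79*SE, where 6.08% of all genes were called and 4.48% were called higher. These were Mmp9 (1.04, SE 0.18, adjusted p 0.000997), Ocstamp (0.79, SE 0.21, adjusted p 0.0145) and Atp6v0d2 (0.70, SE 0.11, adjusted p 0.000439). Ocstamp lost the call without 65–79*SE replicate 1 or 65–79*PE replicate 3, with adjusted p up to 0.0626. Acp5 (0.39, SE 0.08, adjusted p 0.00297) and Tnfrsf11a (0.45, SE 0.10, adjusted p 0.00537) were past the adjusted p but not the fold threshold. For Ctsk the difference was 0.15 with a 95% interval of -0.11 to 0.40 on the log2 scale, and for Dcstamp it was -0.01 (-0.22 to 0.19). The intervals were wider for Oscar (-1.64 to 0.35) and Itgb3 (-0.12 to 1.87), and Nfatc1 lay between -0.33 and -0.01 with an adjusted p of 0.0808.

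The same comparison in replicates 4–6 set libraries without the IFNγ response against 65–79*PE libraries with it, so the peptide cannot be told apart from that response. It called 5 genes, where 13.8% of all genes were called. Ctsk (2.25, SE 0.15, adjusted p 3.03e-07), Atp6v0d2 (1.61, SE 0.10, adjusted p 2.65e-07), Acp5 (1.56, SE 0.16, adjusted p 1.73e-05) and Mmp9 (1.56, SE 0.26, adjusted p 0.00068) were higher in the libraries labelled 65–79*SE, and Ocstamp was lower (-2.48, SE 0.46, adjusted p 0.00143). The difference between the label sets was tested in 1 model of the 18 libraries, with a threshold on the adjusted p alone. It was past that threshold for 7 of the 10 genes, where 28.8% of all genes were, among them Ocstamp (-3.29, SE 0.50, adjusted p 5.34e-05) and Ctsk (2.09, SE 0.19, adjusted p 6.78e-08).

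The contrasts against PBS were tested between the label sets in the same way. For 65–79*SE the difference (replicates 4–6 minus replicates 1–3) passed for 6 genes, where 35.7% of all genes did, and it was 2.03 for Ctsk (SE 0.17, adjusted p 2.24e-08), -2.64 for Ocstamp (SE 0.56, adjusted p 0.000879) and 1.05 for Nfatc1 (SE 0.15, adjusted p 1.19e-05). For 65–79*PE, whose libraries carried the IFNγ response in both sets, it passed for 3 genes, where 11.5% of all genes did. These were Dcstamp (-1.39, SE 0.14, adjusted p 1.93e-05), Nfatc1 (0.54, SE 0.15, adjusted p 0.0208) and Tnfrsf11a (0.43, SE 0.12, adjusted p 0.0331). The count was 1 without 65–79*PE replicate 6, and it was 2 without any 1 of PBS replicates 1, 5 or 6 or 65–79*PE replicates 3 or 5. The share of all genes is not given for these counts. For Ctsk (-0.07, SE 0.18), Acp5 (-0.14, SE 0.17) and Atp6v0d2 (0.18, SE 0.17) the adjusted p was 0.87, 0.661 and 0.523.

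With Il-4, Ctsk, Mmp9 and Atp6v0d2 were higher than PBS where they were called in these fits, and Nfatc1 and Acp5 were lower where they were called. In 65–79*SE libraries 3 of the 10 genes were called in replicates 1–3 (Ctsk and Mmp9 higher, Nfatc1 lower), where 6.44% of all genes were called and 3.07% were called higher. In replicates 4–6 there were 2 (Mmp9 and Atp6v0d2 higher), where 1.05% were called and 0.779% were called higher. In 65–79*PE libraries 1 gene was called in each set, Nfatc1 lower in replicates 1–3 and Acp5 lower in replicates 4–6, where 3.95% and 2.24% of all genes were called. Oscar failed the low count filter in replicates 4–6, with 0 to 6 counts per library, so 9 genes were tested there. The median log2 fold change over the genes tested was 0.45 and 0.22 with 65–79*SE and 0.18 and 0.24 with 65–79*PE, beside -0.0158, -0.0111, -0.0150 and -0.00634 over all genes.

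These counts turned on single libraries and on pairing. Replicate 1 stood apart in all 3 groups, and leaving it out of all of them, an alternative chosen after seeing the data, gave 6 called genes with 65–79*SE and 6 with 65–79*PE, where 15.5% and 7.55% of all genes were called. Without PBS replicate 1 alone the counts were 5 and 4. The share of all genes is not given for these counts or for the other single-library counts of this paragraph. Same-numbered libraries deviated together in 65–79*SE against PBS of replicates 1–3 and in 65–79*PE against PBS of both sets, and with the replicate number as a block the counts were 5, 4 and 4, where 8.65%, 5.89% and 4.71% of all genes were called. For 65–79*PE in replicates 1–3, different-numbered libraries correlated up to 0.20, above the lowest same-numbered pair at 0.13. The numbers thus did not clearly pair the libraries there. In replicates 4–6 they did not pair 65–79*SE with PBS (-0.11 to 0.17), and the block covered that group too. The blocked values of single genes given below carry these limits. The 65–79*PE count of replicates 4–6 was 3 without PBS replicate 6 and 0 without 65–79*PE replicate 4 or 5. The 65–79*SE count was 1 without PBS replicate 2 or 3 or any 1 of the 65–79*SE libraries in replicates 1–3, and 1 and 0 without PBS replicate 4 and 5 in replicates 4–6.

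**Figure D3:**
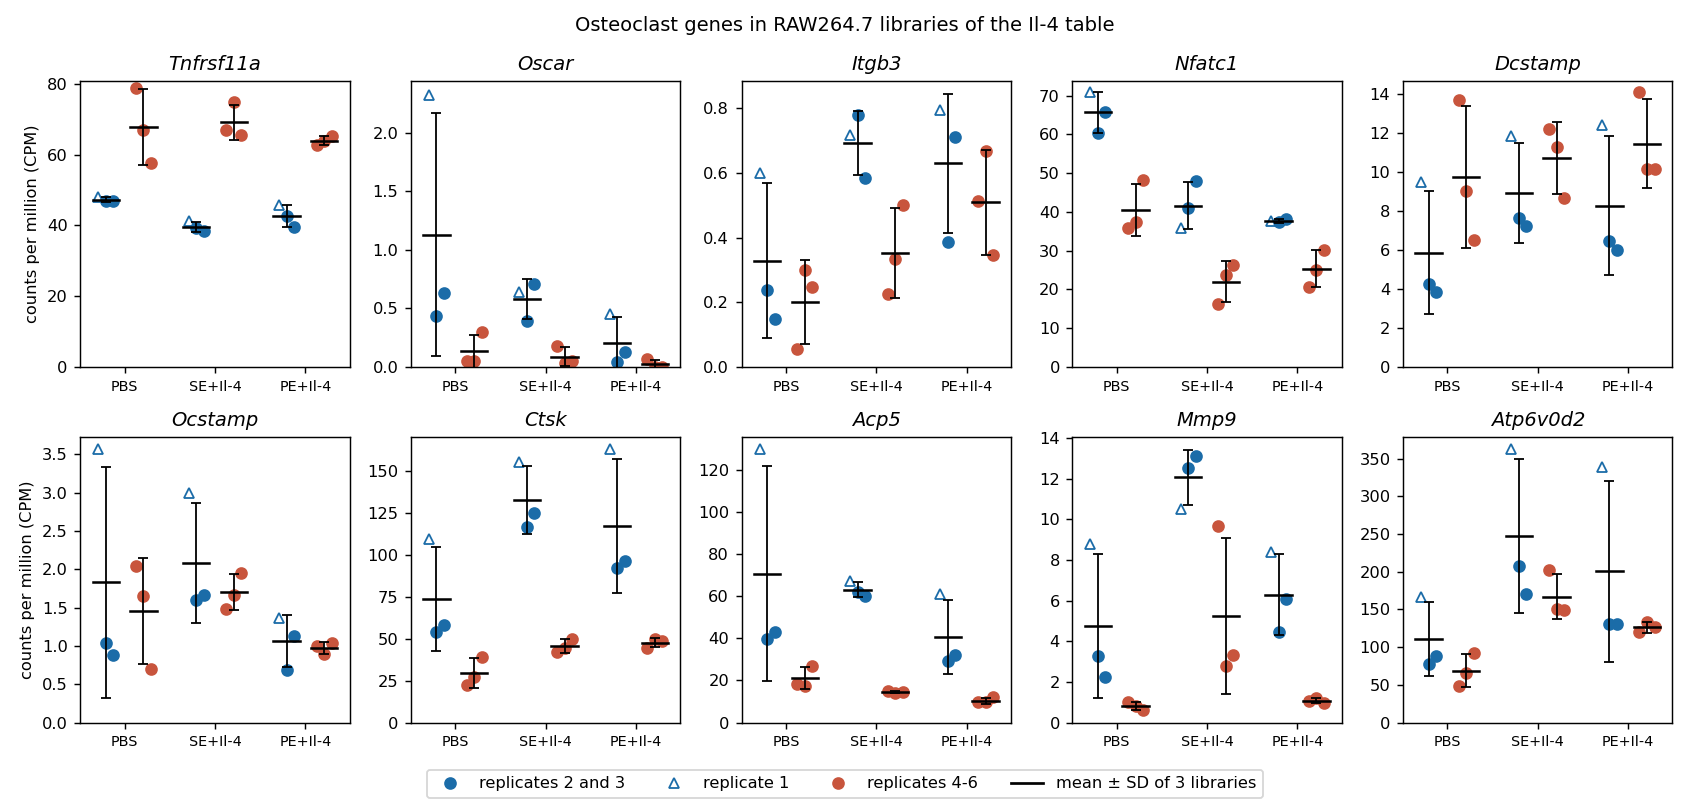
Level of each of the 10 genes in every library of the Il-4 table, in CPM (vertical axis from 0), by group. Blue symbols are replicates 1-3 (open triangle, replicate 1), red symbols replicates 4-6, and bars the mean ± SD of 3 libraries. Replicate 1 is the highest blue symbol in all 3 groups for Ctsk, Acp5, Atp6v0d2 and Dcstamp, and Nfatc1 is lower in peptide libraries than in PBS in both sets.

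Ctsk was at 109, 53.7 and 58.0 CPM in PBS replicates 1–3 of the Il-4 table, at 155, 117 and 125 CPM with 65–79*SE and at 163, 91.8 and 96.5 CPM with 65–79*PE. Among replicates 4–6 the levels were 22.1, 27.0 and 39.1 CPM in PBS, at 42.2, 44.5 and 49.9 CPM with 65–79*SE and at 44.4, 49.5 and 48.3 CPM with 65–79*PE. All peptide libraries of replicates 4–6 were above PBS, as were the 65–79*SE libraries of replicates 1–3. The log2 fold change with 65–79*SE was 0.89 (SE 0.28, adjusted p 0.0472) and 0.63 (SE 0.18, adjusted p 0.126), and with 65–79*PE it was 0.72 (SE 0.28, adjusted p 0.121) and 0.69 (SE 0.18, adjusted p 0.0776). With the replicate block, whose limits are given above, the 65–79*PE values were 0.74 (adjusted p 0.0013) and 0.72 (adjusted p 0.018), both called. The 65–79*SE call of replicates 1–3 was lost without PBS replicate 2 or 3 or any 1 of the 65–79*SE libraries, with adjusted p up to 0.165, and without replicate 1 in all groups it was 1.17 (adjusted p 4.72e-06).

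Atp6v0d2 was at 167, 77.4 and 87.7 CPM in PBS replicates 1–3, at 364, 207 and 171 CPM with 65–79*SE and at 339, 131 and 131 CPM with 65–79*PE. Replicates 4–6 had it at 48.1, 66.2 and 91.6 CPM in PBS, at 202, 151 and 149 CPM with 65–79*SE and at 120, 134 and 126 CPM with 65–79*PE. PBS and peptide libraries of replicates 4–6 did not overlap. The call with 65–79*SE there (1.28, SE 0.21, adjusted p 0.0181) was lost without PBS replicate 5, with an adjusted p of 0.108, while 65–79*PE (0.88, SE 0.21, adjusted p 0.0558) passed with the block (0.90, adjusted p 0.0425). In replicates 1–3 the values were 1.20 (SE 0.42, adjusted p 0.065) with 65–79*SE and 0.90 (SE 0.41, adjusted p 0.181) with 65–79*PE, and with the block they were 1.22 (adjusted p 3.77e-05) and 0.84 (adjusted p 0.000454).

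Mmp9 was at 8.78, 3.25 and 2.22 CPM in PBS replicates 1–3 and at 10.5, 12.5 and 13.1 CPM with 65–79*SE (1.39, SE 0.41, adjusted p 0.0377). Among replicates 4–6 it stood at 0.993, 0.798 and 0.596 CPM in PBS and at 9.68, 2.78 and 3.31 CPM with 65–79*SE (2.72, SE 0.49, adjusted p 0.029). Every 65–79*SE library was above every PBS library of its set, with replicate 4 the highest by far. The first call was lost without PBS or 65–79*SE replicate 2 or 3, with adjusted p up to 0.134, and the second without any 1 of the PBS replicates, with adjusted p up to 0.126. The 65–79*PE libraries stood at 8.39, 4.43 and 6.06 CPM and at 1.06, 1.21 and 0.979 CPM, which overlapped PBS in both sets (0.46, SE 0.41, adjusted p 0.509, and 0.46, SE 0.53, adjusted p 0.7).

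Nfatc1 was at 71.0, 60.3 and 65.8 CPM in PBS replicates 1–3, at 35.95, 40.9 and 48.1 CPM with 65–79*SE and at 37.6, 37.3 and 38.1 CPM with 65–79*PE. Both falls were called, with log2 fold changes of -0.61 (SE 0.11, adjusted p 0.0071) and -0.76 (SE 0.11, adjusted p 0.00314). Replicates 4–6 had it at 35.8, 37.4 and 48.3 CPM in PBS, at 16.1, 23.7 and 26.3 CPM with 65–79*SE and at 20.6, 25.1 and 30.3 CPM with 65–79*PE. The peptide libraries lay below PBS in both sets. There, neither -0.88 (SE 0.21, adjusted p 0.0766) nor -0.68 (SE 0.20, adjusted p 0.108) was called, although the latter passed with the block (-0.68, adjusted p 0.00788). Without replicate 1 in all groups the 65–79*SE value of replicates 1–3 was -0.44 (adjusted p 0.00344), under the fold threshold. That call was also lost without PBS replicate 1 or 65–79*SE replicate 1 alone, at -0.55 and -0.50, again under the fold threshold.

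Acp5 was at 130, 39.7 and 42.8 CPM in PBS replicates 1–3, at 67.1, 61.8 and 60.2 CPM with 65–79*SE and at 61.0, 29.2 and 32.1 CPM with 65–79*PE, and the groups overlapped. Among replicates 4–6 it stood at 18.4, 17.5 and 26.9 CPM in PBS, at 14.9, 14.2 and 14.6 CPM with 65–79*SE (-0.53, SE 0.17, adjusted p 0.166) and at 9.57, 9.54 and 11.9 CPM with 65–79*PE (-1.02, SE 0.18, adjusted p 0.0154). Both peptide groups lay below PBS there, and the 65–79*PE call was lost without 65–79*PE replicate 4 or 5, with adjusted p up to 0.101. In replicates 1–3 the value was -0.12 (SE 0.41, adjusted p 0.86) with 65–79*SE and -0.75 (SE 0.41, adjusted p 0.264) with 65–79*PE. Without replicate 1 in all groups, Acp5 was called higher with 65–79*SE at 0.62 (adjusted p 0.000393) and was -0.37 (adjusted p 0.0133) with 65–79*PE.

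The other 5 genes were not called with Il-4 in these fits. Tnfrsf11a ran from 46.9 to 48.2 CPM in PBS replicates 1–3, from 38.3 to 41.1 CPM with 65–79*SE and from 39.6 to 45.7 CPM with 65–79*PE, with log2 fold changes of -0.21 (SE 0.08, adjusted p 0.102) and -0.10 (SE 0.08, adjusted p 0.469). Dcstamp had log2 fold changes of 0.65 (SE 0.38, adjusted p 0.243) and 0.55 (SE 0.38, adjusted p 0.374) in replicates 1–3, and the former was called with the block (0.72, adjusted p 0.00499). Oscar was at 2.33, 0.436 and 0.629 CPM in PBS replicates 1–3, at 0.643, 0.389 and 0.709 CPM with 65–79*SE and at 0.454, 0.0431 and 0.125 CPM with 65–79*PE (-2.32, SE 0.76, adjusted p 0.0755), which passed with the block (-2.31, adjusted p 0.00944). Ocstamp, which rose with 65–79*PE and IFNγ, had log2 fold changes of -0.73 (SE 0.52, adjusted p 0.399) and -0.58 (SE 0.35, adjusted p 0.402) with 65–79*PE and Il-4. Itgb3 had 1 to 21 counts per library, with log2 fold changes between 0.75 and 1.34 in the 4 contrasts and adjusted p from 0.128 to 0.482.

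Set against each other with Il-4, the peptides gave 0 called genes among the 10 and 0 among all genes tested in either label set by edgeR, where 0% of all genes were called. At an unadjusted p under 0.05 there were 1 of 10 in replicates 1–3 and 3 of the 9 tested in replicates 4–6. DESeq2 called 1, Mmp9, in replicates 4–6 (2.28, adjusted p 0.00508) and 0 in replicates 1–3. The share of all genes is not given here for either count, so neither can be set beside it. Mmp9 was higher with 65–79*SE in every library of both sets, with differences of 0.93 (95% interval -0.04 to 1.91) and 2.26 (1.14 to 3.37) and adjusted p of 0.878 and 0.513. The intervals use fewer degrees of freedom than the tests. An interval can therefore hold 0 at an unadjusted p under 0.05, as for Mmp9 in replicates 1–3. For Ctsk the differences were 0.17 (-0.50 to 0.85) and -0.06 (-0.50 to 0.38), and for Nfatc1 0.15 (-0.12 to 0.41) and -0.20 (-0.70 to 0.30). Acp5 was 0.63 (-0.38 to 1.63) and 0.50 (0.07 to 0.93), and Ocstamp 0.97 (-0.30 to 2.25) and 0.81 (-0.02 to 1.64). Without replicate 1 in all groups, Acp5 (0.99, adjusted p 0.0029) and Mmp9 (1.29, adjusted p 0.0499) were called higher with 65–79*SE, where 0.0487% of all genes were called. The difference between the label sets was past the adjusted p for 0 of the 10 genes in each of the 3 Il-4 contrasts, where 4.39% (65–79*SE against PBS), 0.00705% (65–79*PE against PBS) and 0% (65–79*SE against 65–79*PE) of all genes were.

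The contrasts against PBS with IFNγ and with Il-4 were compared in 1 model of all 36 libraries. The tables were counted separately, so only contrasts and not levels were set against each other. The difference (IFNγ minus Il-4) for 65–79*PE had an adjusted p under 0.05 in 6 genes in replicates 1–3 and in 7 in replicates 4–6, where 18.1% and 16% of all genes were, and with 65–79*SE in replicates 1–3 for 5, where 26.5% were. Ctsk differed by -3.51 (SE 0.31, adjusted p 7.03e-10) and -3.65 (SE 0.32, adjusted p 5.18e-10) with 65–79*PE and by -3.57 (SE 0.31, adjusted p 3.02e-10) with 65–79*SE. Mmp9 (-2.62, -3.55 and -2.55), Atp6v0d2 (-2.44, -2.34 and -2.07) and Acp5 (-1.49, -1.45 and -1.76) were also below 0 in all 3, with adjusted p of at most 0.0164.

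Ocstamp differed in the other direction, by 2.07 (SE 0.60, adjusted p 0.0138), 2.49 (SE 0.64, adjusted p 0.00624) and 1.85 (SE 0.57, adjusted p 0.015). In replicates 1–3 its calls were lost without IFNγ PBS replicate 1 or Il-4 PBS replicate 1, with adjusted p up to 0.241, and the values were 1.37 and 1.30 without replicate 1 of all Il-4 groups (adjusted p 0.127 and 0.0877). Itgb3 differed by -1.92 (SE 0.66, adjusted p 0.0403) and -3.82 (SE 0.74, adjusted p 0.0004) with 65–79*PE, and the first was lost without any 1 of 10 of the 12 libraries of those groups, the exceptions being Il-4 PBS replicate 1 and Il-4 65–79*PE replicate 2. Dcstamp differed only in replicates 4–6 by this test (-1.45, SE 0.37, adjusted p 0.00559). Nfatc1 did not pass in any of the 3, at -0.05 (SE 0.21), 0.32 (SE 0.21) and -0.40 (SE 0.21), and neither did Tnfrsf11a or Oscar.

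Another 61 genes of the osteoclast programme were counted in 8 lists, and 56 of them were tested with IFNγ and 55 with Il-4. RANKL (Tnfsf11), its decoy receptor osteoprotegerin (Tnfrsf11b), Il34 and Camk4 did not pass the low count filter in any contrast. With 65–79*PE and IFNγ 21 of 56 were called in replicates 1–3 (where 19.8% of all genes were), of which 9 were higher, and 13 of 56 in replicates 4–6 (10.8%), of which 5 were higher, and 10 were called in the same direction in both. With 65–79*SE and IFNγ 20 of 56 were called in replicates 1–3 (22.8%), of which 12 were higher, and 2 of 56 in replicates 4–6 (0.72%), both lower. The list of factors that repress osteoclast formation (5 genes) had 3 and 2 called higher and 0 lower with 65–79*PE in the 2 sets, where 10.3% and 6.16% of all genes were called higher. The list of activating factors (11 and 12 genes tested) had 1 and 0 higher and 4 and 3 lower, where 9.54% and 4.66% of all genes were called lower. These lists are small, and neither was tested against the other or against all genes. With Il-4 the counts were 3 and 3 of 55 with 65–79*PE (3.95% and 2.24% of all genes) and 5 and 0 of 55 with 65–79*SE (6.44% and 1.05%).

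By the naming rule, the genes reported as higher with 65–79*PE and IFNγ were Csf1 and Irf8. Csf1 encodes M-CSF, the survival factor of macrophages and osteoclast precursors, and its mean went from 4.30 to 36.6 CPM in replicates 1–3 (3.13, SE 0.11, adjusted p 3.66e-11) and from 9.45 to 36.4 CPM in replicates 4–6 (1.94, SE 0.33, adjusted p 0.00116). Irf8 encodes a transcription factor that represses osteoclast formation, and it rose by 0.66 (SE 0.07, adjusted p 4.49e-06) and 0.99 (SE 0.06, adjusted p 2.99e-07). In the libraries labelled 65–79*SE of replicates 4–6 neither was called, with -0.997 for Csf1 (adjusted p 0.193) and -0.02 for Irf8 (adjusted p 0.898).

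The largest falls were in Siglec15, Cd9 and Jun. Siglec15, a sialic acid receptor of osteoclast precursors, fell from a mean of 0.806 to 0.151 CPM in replicates 1–3 (-2.35, SE 0.38, adjusted p 0.000172) and from 0.951 to 0.335 CPM in replicates 4–6 (-1.47, SE 0.47, adjusted p 0.0394). Cd9, a tetraspanin linked to cell fusion, fell from 233 to 86.2 CPM (-1.40, SE 0.07, adjusted p 3.92e-09) and from 169 to 53.2 CPM (-1.66, SE 0.12, adjusted p 7.91e-07). Jun, a subunit of AP-1, fell by 1.51 (SE 0.08, adjusted p 1.88e-09) and 1.20 (SE 0.16, adjusted p 0.000143) on the log2 scale. With Il-4 only Ctss and Fosl2 met the rule for 65–79*PE. Ctss, which encodes cathepsin S, rose by 0.62 (SE 0.09, adjusted p 0.00414) and 0.69 (SE 0.13, adjusted p 0.0203), and Fosl2, which encodes the AP-1 subunit Fra-2, was at -1.15 (SE 0.17, adjusted p 0.00329) and -1.05 (SE 0.14, adjusted p 0.0045). Fosl2 was also called lower with 65–79*PE and IFNγ, at -1.21 (SE 0.09, adjusted p 7.88e-08) and -1.25 (SE 0.10, adjusted p 2.38e-06).

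**Figure D4:**
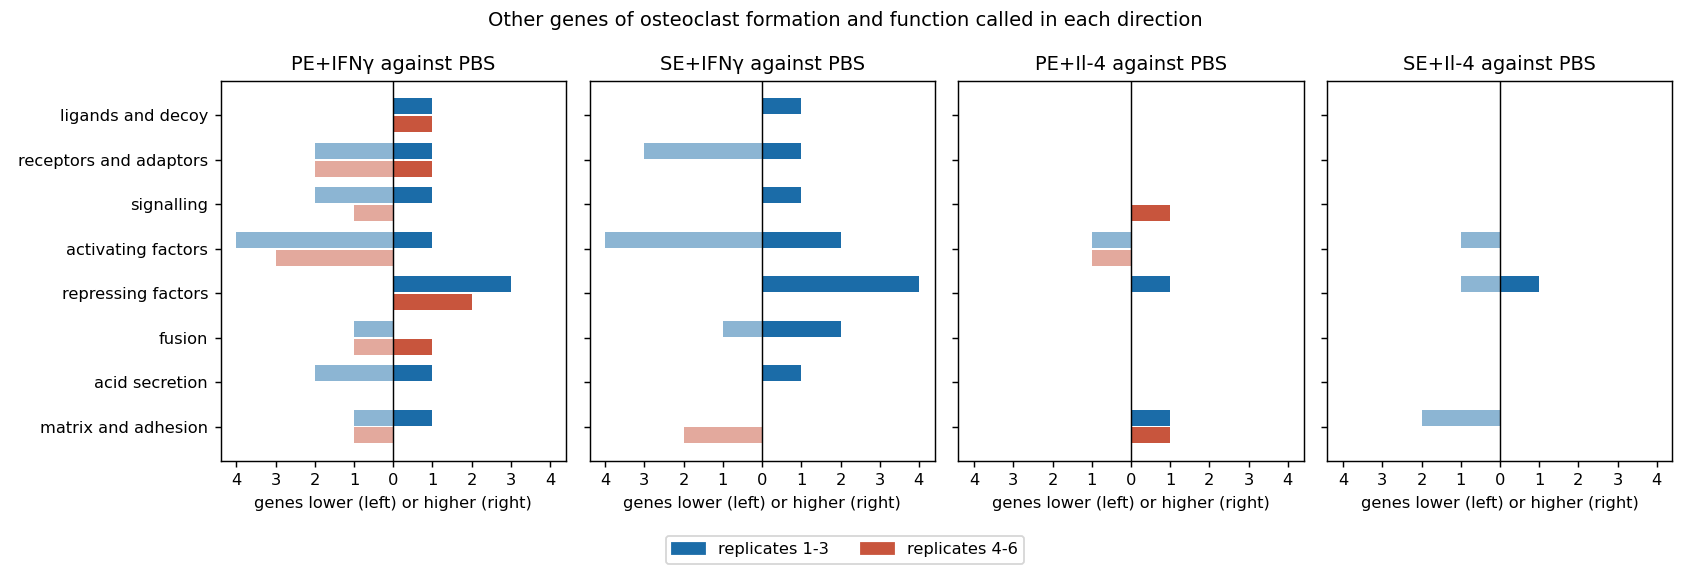
Number of other osteoclast genes called against PBS (horizontal axis, lower to the left in pale bars and higher to the right in full bars) in each of 8 lists, for each peptide with IFNγ or Il-4, in replicates 1-3 (blue) and 4-6 (red). In replicates 1-3 with IFNγ the activating factors reach 4 genes lower with each peptide and the repressing factors 3 and 4 higher, and with Il-4 no list has more than 2 genes in 1 direction.

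Across the 36 libraries, after the mean of each table and label set was taken out of log2 CPM, Ctsk followed Acp5 (Pearson r 0.834), Atp6v0d2 (0.834) and Mmp9 (0.739) and ran against Ocstamp (-0.618). Acp5 was also close to Oscar (0.815), while Tnfrsf11a had no r beyond 0.215 in size with any of the other 9. These values describe libraries that share treatment groups and are given without a test. Among 8067 genes with at least 10 CPM on average in each table, those most like Ctsk were Tbc1d2b (0.939), Wsb2 (0.922) and Fam198b (0.918), and those most like Acp5 were Spink5 (0.875), Galnt6 (0.864) and Arsb (0.863).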

How the data were processed

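RNA from RAW264.7 cells was sequenced after stranded mRNA library preparation. The authors counted uniquely aligned single-end reads per gene with featureCounts, and deposited raw counts in 2 tables of 49568 gene names. The submitters' notes name DESeq2 1.16.1, R 3.4.1 and GRCm38.p5, and the aligner and the strand option were not given in the sources used here. Names that a spreadsheet had turned into dates (26) were not repaired.

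Groups and label sets came from the sample labels. The study describes its 6 replicates per group as biological and as coming from 2 experiments, but the labels do not say which library came from which, or how replicate cultures were grown. The p-values measure the spread between these libraries. The genes and lists were chosen with earlier results of these data known. CPM used TMM factors over the 18 libraries of a table, and lengths were exon unions of GENCODE M21. Each label set of a table (9 libraries) was fitted in edgeR 4.0.16 (R 4.3.3; filterByExpr, TMM, quasi-likelihood test, Benjamini-Hochberg adjustment over all genes passing the filter). A call needed an adjusted p under 0.05 and a fold change above 1.5. Differences between label sets were fitted over 18 libraries and between tables over 36, with the adjusted p alone. Standard errors are log2 estimates divided by the root of the F statistic, and 95% intervals use 6 degrees of freedom, fewer than the tests use. All 10 genes were reported. Of the 61 other genes, those named were the 3 largest in each direction among genes called the same way with 65–79*PE in both sets (1 of them is not reported here), and likeness was Pearson's r of centred log2 CPM.

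The labels do not say what a replicate number marks. Deviations of same-numbered libraries from their group means correlated over 0.1 in all 3 pairs for 65–79*SE against 65–79*PE with IFNγ in replicates 4–6 (0.10 to 0.16), and with Il-4 for 65–79*SE against PBS in replicates 1–3 (0.15 to 0.34), 65–79*PE against PBS in replicates 1–3 (0.13 to 0.30) and replicates 4–6 (0.21 to 0.44), and 65–79*SE against 65–79*PE in replicates 1–3 (0.19 to 0.51). Different-numbered pairs with Il-4 in replicates 1–3 reached 0.20 for 65–79*PE against PBS and 0.23 for 65–79*SE against 65–79*PE. Both were above the lowest same-numbered pair. The replicate number was used as a block in an alternative of each fit. That block covered all groups of the fit, also those whose numbers did not pair the libraries. Other alternatives were DESeq2 1.42.0, RLE size factors, other count filters, removal of histone, small RNA and mitochondrial genes, 18-library and 2-group fits, and leaving out libraries. The scripts were tested on simulated counts.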

Additional observations from a re-analysis of the deposited data

Results flagged for a closer look

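Single libraries of the Il-4 table lay far from the other 5 of their group by Dixon's test, which was run on 60 groups of 6 libraries, flagged 8 and flags about 1 in 20 by chance. All 8 were replicate 1, in CPM with the next highest library in parentheses. They were Acp5 in PBS at 130 (42.8), Atp6v0d2 in PBS at 167 (91.6), with 65–79*PE at 339 (134) and with 65–79*SE at 364 (207), Mmp9 in PBS at 8.78 (3.25), Ocstamp with 65–79*SE at 2.99 (1.95), and Oscar in PBS at 2.33 (0.629) and with 65–79*PE at 0.454 (0.125). The groups pool label sets whose levels differ, and the part of either in the flags was not tested.

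Contrasts that differed between the label sets of the IFNγ table by an interaction test are given as replicates 4–6 minus replicates 1–3 on the log2 scale. Against PBS the 65–79*SE libraries differed in Nfatc1 by 1.05, Dcstamp by -0.85, Ocstamp by -2.64, Ctsk by 2.03, Acp5 by 1.01 and Atp6v0d2 by 1.07, and the 65–79*SE libraries of replicates 4–6 were those without the IFNγ response. Against 65–79*PE they differed in Tnfrsf11a by -0.60, Nfatc1 by 0.50, Dcstamp by 0.54, Ocstamp by -3.29, Ctsk by 2.09, Acp5 by 1.15 and Atp6v0d2 by 0.88. The 65–79*PE libraries differed against PBS in Tnfrsf11a by 0.43, Nfatc1 by 0.54 and Dcstamp by -1.39.

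The contrasts against PBS also differed between the tables, given as IFNγ minus Il-4. With 65–79*PE in replicates 1–3 this held for Itgb3 at -1.92, Ocstamp at 2.07, Ctsk at -3.51, Acp5 at -1.49, Mmp9 at -2.62 and Atp6v0d2 at -2.44. In replicates 4–6 it held for Itgb3 at -3.82, Dcstamp at -1.45, Ocstamp at 2.49, Ctsk at -3.65, Acp5 at -1.45, Mmp9 at -3.55 and Atp6v0d2 at -2.34. With 65–79*SE in replicates 1–3 it held for Ocstamp at 1.85, Ctsk at -3.57, Acp5 at -1.76, Mmp9 at -2.55 and Atp6v0d2 at -2.07. In these data the cytokine and the table cannot be told apart.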

How the results depend on the processing

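The counts of called genes with IFNγ kept their size under most alternatives. The share of all genes is not given beside these counts or the Il-4 counts below. A change in a count therefore cannot be set against a change in that share. With 65–79*PE against PBS in replicates 4–6 the count fell from 8 to 5 under a minimum of 10 counts in every library, since Oscar, Itgb3 and Ocstamp then left the test. With 65–79*SE against PBS in replicates 4–6 it was 0 to 4 with a library left out and 0 when only the 2 groups were fitted. The 65–79*PE difference between label sets ranged from 1 to 4 with a library left out. The IFNγ minus Il-4 difference for 65–79*SE in replicates 1–3 was 8 with the replicate block.

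The Il-4 counts depended more on the setting, and the cause was not tested. For 65–79*PE against PBS in replicates 1–3 the count of 1 became 2 with DESeq2, 5 with no low count filter, 4 with the replicate block and 1 to 6 with libraries left out. For replicates 4–6 it became 4 with DESeq2, 4 with no filter, 4 with the block, 2 with histone, small RNA and mitochondrial genes removed, 2 in the 2-group fit and 0 to 3 with a library left out. For 65–79*SE against PBS in replicates 1–3 the count of 3 became 5 with no filter, 5 with the block, 1 in the 2-group fit and 1 to 6 with libraries left out. In replicates 4–6 the count of 2 became 4 with DESeq2, 4 with no filter, 4 with the replicate block (where the numbers do not pair the libraries, the same-number correlations running from -0.11 to 0.17), 0 in the 2-group fit and 0 to 2 with a library left out. For 65–79*SE against 65–79*PE the count of 0 became 2 with no filter in replicates 1–3 and 0 to 2 with libraries left out, and in replicates 4–6 it became 1 with DESeq2 and 1 with no filter. With no filter the label-set differences of 65–79*SE against PBS and of 65–79*SE against 65–79*PE each had 1 gene in place of 0. The block changed no other count by over 1.5 times.

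One log2 fold change turned sign outside the left-out libraries, that of Acp5 with 65–79*SE and Il-4 in replicates 1–3, which was 0.10 with the replicate block. With libraries left out it ran from -0.41 to 0.66. Others that turned sign then, none of them called in the full fits, were, with Il-4 against PBS in replicates 1–3, Acp5 with 65–79*PE (-1.16 to 0.036), Ocstamp with 65–79*PE (-1.06 to 0.20), Ocstamp with 65–79*SE (-0.10 to 1.17) and Oscar with 65–79*SE (-1.28 to 0.17). Those in replicates 4–6 were Dcstamp (-0.076 to 0.46), Ocstamp (-0.11 to 0.53) and Tnfrsf11a (-0.076 to 0.15) with 65–79*SE and Tnfrsf11a with 65–79*PE (-0.19 to 0.034). Between the peptides with Il-4 they were Atp6v0d2 (-0.078 to 0.92), Dcstamp (-0.15 to 0.53) and Itgb3 (-0.11 to 0.34) in replicates 1–3 and Dcstamp in replicates 4–6 (-0.20 to 0.080). With IFNγ they were Dcstamp between the peptides in replicates 1–3 (-0.033 to 0.025), Itgb3 with 65–79*SE in replicates 1–3 (-0.50 to 0.18) and Nfatc1 with 65–79*SE in replicates 4–6 (-0.079 to 0.20). Of the other single-gene values without a library left out, 1017 kept their direction and side of the threshold, 43 passed it and 15 no longer did. With libraries left out, 1126 did, 31 passed and 66 no longer did. Each label set had 3 libraries per group, and Itgb3 and Oscar had fewer than 10 counts in many libraries, so that differences of a modest size in them were below detection.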
